A study of Mus musculus with 6 samples.

Results

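The genes described here are 9 markers by which macrophage activation is commonly read: Arg1, Nos2, Chil3, Retnla, Il10, Il4ra, Tgfb1, Spp1 and Folr2. They were chosen by gene symbol, and every probe set of the array assigned to 1 of these genes alone was taken. This gave 11 probe sets for 8 genes, out of 45037 probe sets and 18193 genes. Spp1 was not analysed here, and 1 further probe set shared by Chil3 and its relative Chil4 is reported apart.

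Macrophages use arginine in competing ways. Inducible nitric oxide synthase, encoded by Nos2, turns it into nitric oxide and citrulline and is a mark of cells activated by interferon and microbial products, whereas arginase 1 turns it into urea and ornithine, the precursor of polyamines and proline, and is prominent in cells exposed to IL-4, IL-13 or tumours. Chil3 (Ym1, a chitinase-like lectin) and Retnla (Fizz1 or RELM-alpha, a secreted cysteine-rich protein) are classical IL-4 targets in the mouse, and Il4ra codes for the receptor chain that carries the IL-4 and IL-13 signal to STAT6. Il10 and Tgfb1 code for cytokines that restrain inflammation, and Folr2, the folate receptor beta, marks resident and some tumour-associated macrophages.

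RNA came from 3 cultures of E-FABP knockout and 3 cultures of wild type bone marrow cells, both given as strain C57BL/6, from naive mice 6 to 8 weeks old. E-FABP is a cytosolic fatty-acid carrier encoded by Fabp5. Marrow cells of both genotypes had been grown for 7 days in GM-CSF at 20 ng/ml, a culture that yields macrophages together with cells that have dendritic features, and then kept for 18 h with E0771 mouse breast cancer cells in an insert. All 6 cultures thus saw tumour cells, so the comparison concerns genotype in tumour-exposed cells and no unexposed culture was analysed here. The labels call the cultures biological replicates but do not say whether each came from its own mouse, so p-values measure the spread between these samples, which may be technical. Nothing is said of how the knockout was made.

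Values are log2 expression values as deposited. Arrays are numbered here by their replicate number within a genotype. Array medians lay between 5.60 and 5.64, and Pearson's r between arrays, over probe sets, was 0.9914 to 0.9977. The brighter Fabp5 probe set was lower in knockout by 6.17 on the log2 scale (8.27 ± 0.13 against 14.44 ± 0.03, mean ± SD, n = 3 each), so each array carried its stated genotype. Among 8 of 9 listed macrophage markers that were measured, Csf1r, Cd68, Lyz2, Cd14, Adgre1 and Itgam were bright (mean over arrays above 11) and 0 of these 6 passed the threshold, while the Fc receptor gene Fcgr1 (-1.13, SE 0.19) and the receptor kinase gene Mertk (-0.46, SE 0.08) fell in knockout (limma adjusted p = 0.0227 and 0.0234). Listed markers of mast cells, basophils and eosinophils, of T, B and NK cells and of epithelial tumour cells were mostly dim, with 6 of 10, 6 of 8 and 6 of 9 measured genes under the median of all values (5.63). The exception past the threshold was Siglecf in the first of these lists, a lectin gene of eosinophils and of some macrophages, which rose by 0.95 (SE 0.14; limma adjusted p = 0.0177) and was highest on the second knockout array (7.71). The RNA is from the whole culture, in which fewer cells of a type and less RNA per cell cannot be told apart. The number of arrays limits the precision of every value.

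Of the 11 probe sets, 0 passed limma's threshold (adjusted p under 0.05 over all 45037 probe sets), in a comparison in which 3.75% of all probe sets passed, 2.06% higher and 1.70% lower. At an adjusted p under 0.1, Nos2, Il10 and Folr2 were lower in knockout and 0 were higher. By that rule 1516 of all 45037 probe sets (3.37%) were lower and 2259 were higher. At an unadjusted limma p under 0.05 there were 5 of 11, all lower in knockout, beside 8.44% of all probe sets that were lower by that rule and 11.7% that were higher. The 3 knockout values lay wholly below the 3 wild-type values in 4 probe sets (Nos2, Retnla, Il10 and Folr2) and wholly above in 1 (an Il4ra probe set), beside 11.1% and 15.8% of all probe sets. The median difference, knockout minus wild type, was -0.14 over the 11 probe sets and -0.004 over all probe sets. The members were chosen with earlier results of these arrays known, and several probe sets share a gene, so these shares are descriptions and not a test of the group. The widest 95% interval of any of the 11 ran from -0.88 to -0.06 (Retnla), and no interval reached a difference of 1.

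**Figure D1:**
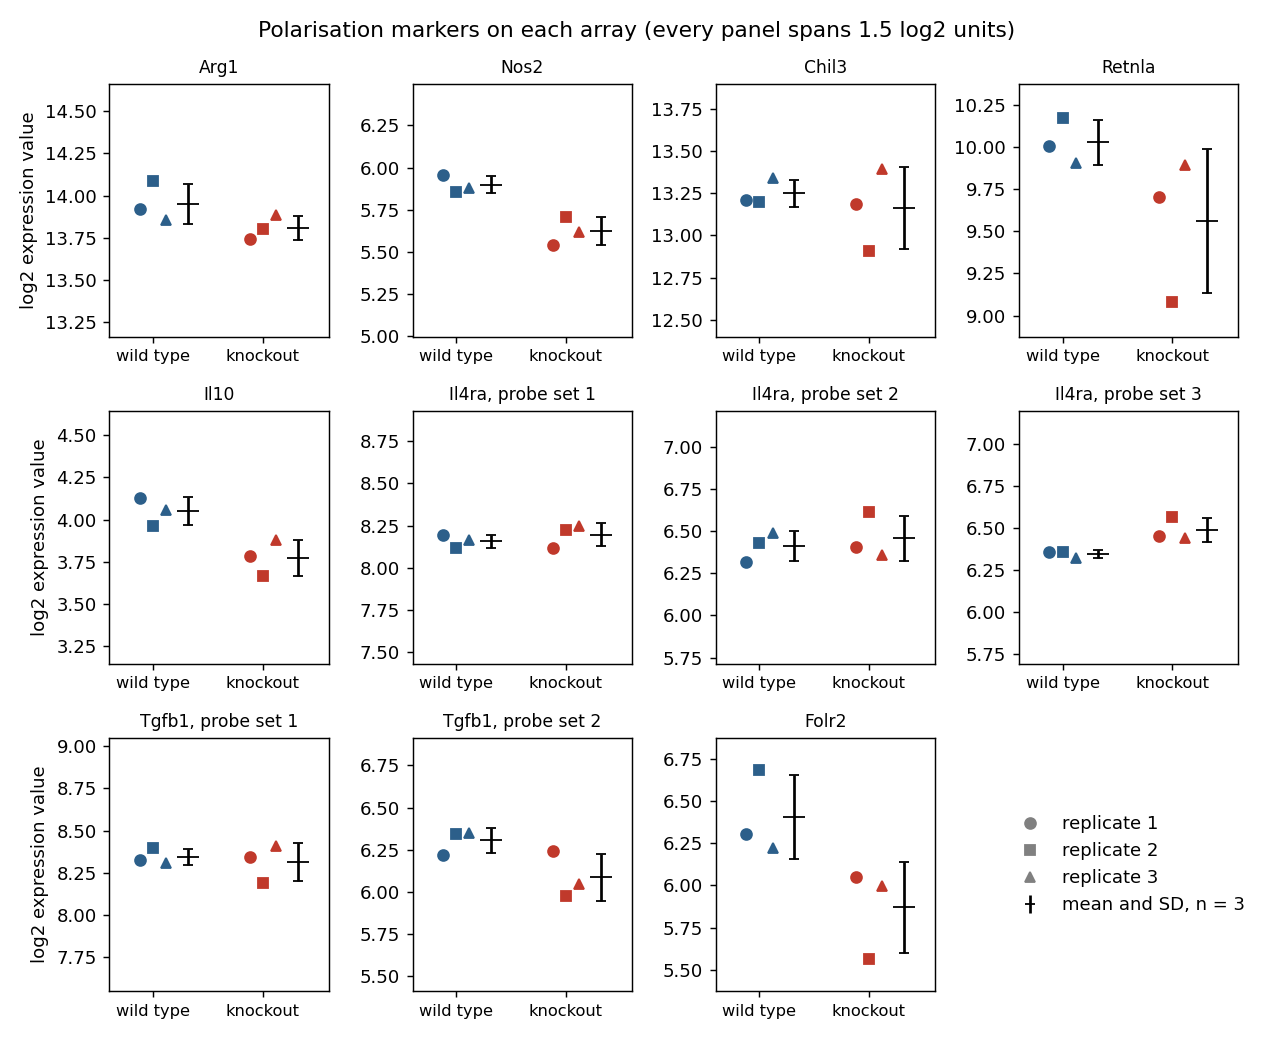
Log2 expression value (vertical axis, 1.5 units in every panel) of each of the 11 probe sets on the 3 wild-type and 3 knockout arrays; symbols mark the replicate number, and bars the mean and SD (n = 3). The knockout points of Nos2, Retnla, Il10 and Folr2 lie below the wild-type points, and those of Arg1, Chil3 and both Tgfb1 probe sets overlap them.

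Arg1, the arginase, was among the brightest transcripts of these cultures in both genotypes and did not pass the test. Knockout arrays 1, 2 and 3 read 13.74, 13.80 and 13.88, and their wild-type counterparts 13.92, 14.08 and 13.85. The genotypes overlapped, with knockout array 3 above wild-type array 3. The difference was -0.14 (SE 0.08, 95% interval -0.32 to 0.04; limma adjusted p = 0.367). Its mean lay at the 99.8th percentile of all probe sets.

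Nos2, which makes nitric oxide from the same substrate, had the smallest p of the 11 probe sets but did not pass. It read 5.54, 5.71 and 5.62 on the knockout arrays and 5.95, 5.86 and 5.88 on the wild-type arrays, so each knockout value was below each wild-type value. The difference was -0.28 (SE 0.07, 95% interval -0.44 to -0.12; limma adjusted p = 0.0665), or 1.21-fold. Nos2 sat near the middle of the array's range, with 52.1 as the percentile of its mean, and no detection calls were used here, so how much of the reading is signal of the transcript is not known. With probe sets above the median level only, which leaves fewer tests, its limma adjusted p was 0.0356, in a setting that called 4.34% of probe sets lower, and it ran from 0.104 to 0.18 when 1 array was left out.

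The balance of both arginine users, taken on each array as the log2 value of Arg1 minus that of Nos2 and set to 0 at the wild-type mean, was 0.15, 0.04 and 0.21 on knockout arrays 1, 2 and 3. On wild-type arrays 1, 2 and 3 it was -0.09, 0.17 and -0.08. The genotypes overlapped, with means 0.13 ± 0.09 against 0.00 ± 0.15 (SD, n = 3 each). Both genes had the lower mean in knockout, and the difference in the balance was smaller than that of Nos2 alone.

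**Figure D2:**
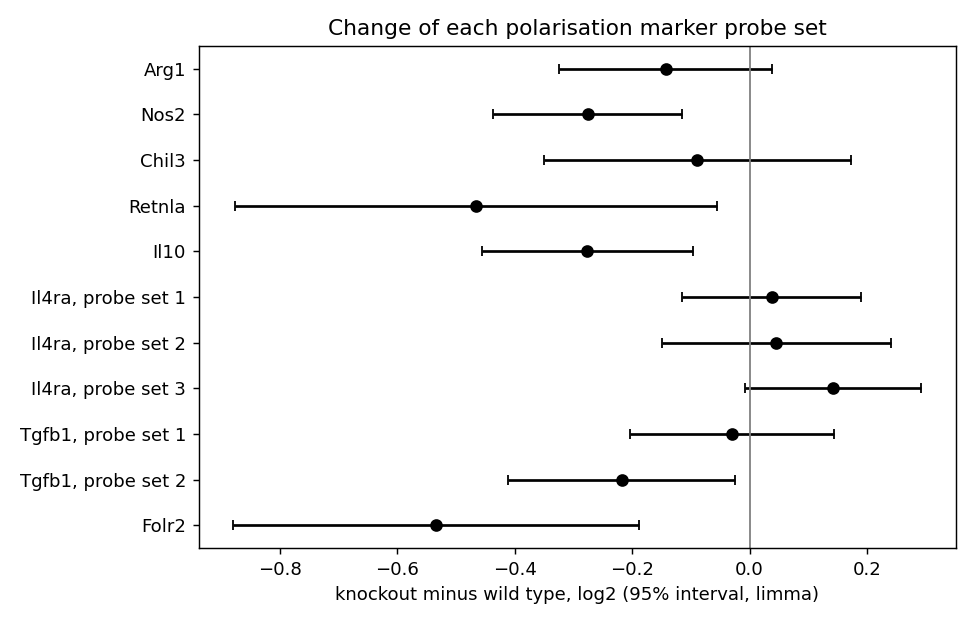
Difference between knockout and wild type (horizontal axis, log2) for each of the 11 probe sets, with limma's 95% interval from 3 arrays per genotype, not adjusted for the number of tests. The intervals of Nos2, Retnla, Il10, Folr2 and 1 Tgfb1 probe set lie below 0 and the other 6 include 0.

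Retnla and Chil3 are both used as IL-4 response markers, and neither passed the test. The 250 bases before the RefSeq start of each gene (build GRCm38.p6) are shown because both genes are read as targets of the same signal; capitals mark matches to motifs searched on both strands. The first lies at chr16:48842359-48842608 (plus strand) and the second at chr3:106167565-106167814 (minus strand), each printed 5′ to 3′ along its gene.
Retnla: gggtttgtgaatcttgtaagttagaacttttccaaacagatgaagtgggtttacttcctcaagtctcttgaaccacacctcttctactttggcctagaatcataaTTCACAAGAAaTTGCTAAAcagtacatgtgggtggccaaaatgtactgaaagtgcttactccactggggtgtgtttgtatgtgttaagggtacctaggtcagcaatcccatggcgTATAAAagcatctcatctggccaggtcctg
Chil3: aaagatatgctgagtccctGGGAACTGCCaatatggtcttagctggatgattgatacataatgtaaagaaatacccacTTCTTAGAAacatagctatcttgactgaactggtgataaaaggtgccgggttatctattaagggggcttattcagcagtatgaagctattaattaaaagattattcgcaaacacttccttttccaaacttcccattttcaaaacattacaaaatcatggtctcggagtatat
In Retnla the capitals are, in order, a STAT6-type palindrome (TTC, any 4 bases, GAA) at -145 to -136, a C/EBP-type match TTGCNNAA at -134 to -127 and a TATA box TATAAA at -30 to -25, counted from the start. In Chil3 they are a loose NF-kB-type match (GGG, any 5 bases, CC) at -231 to -222 and a GAS-type palindrome TTCNNNGAA at -172 to -164. Over 32851 promoter windows of that length, the STAT6-type palindrome stood in 5.85%, TTGCNNAA in 9.56%, TATAAA in 12.4%, the NF-kB-type motif in 45.8% and TTCNNNGAA in 7.02%. The core of the interferon-response element (GAAA, any 2 bases, GAAA) stood in 2.98% and in neither of these windows. These are matches of letters and not shown to be bound in these cells. Windows were matched for 6 of the 9 genes: Chil3, Retnla, Il4ra, Tgfb1, Spp1 and Folr2.

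Retnla read 9.71, 9.08 and 9.89 on knockout arrays 1, 2 and 3 against 10.00, 10.17 and 9.91 on the wild-type arrays. The groups did not overlap, but knockout array 3 and wild-type array 3 differed only in the second decimal, and knockout array 2 stood far below the rest. The mean difference was -0.47 (SE 0.18; limma adjusted p = 0.19), or 1.38-fold, and it was -0.23 without knockout array 2. The knockout SD was 0.43 and the wild-type SD 0.13.

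Chil3 was bright, at the 99.4th percentile, and overlapped between genotypes. It read 13.18, 12.91 and 13.39 on the knockout arrays and 13.21, 13.20 and 13.34 on the wild-type arrays. The difference was -0.09 (SE 0.12, 95% interval -0.35 to 0.17; limma adjusted p = 0.729), and it was 0.04 without knockout array 2, which again was the lowest array. The probe set shared by Chil4 and Chil3 also had its lowest value there (11.89) and gave a difference of -0.14 (SE 0.15; limma adjusted p = 0.646).

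Knockout replicate 2 was the lowest of the 6 arrays in 6 of the 11 probe sets, beside 17.7% of all probe sets. Averages of cell type marker lists stood apart on the same array. The macrophage list (8 of 9 measured) averaged -0.10, -0.21 and -0.03 from the gene means on knockout arrays 1, 2 and 3 and 0.08 to 0.15 in wild type. Fcgr1 weighed most in this average, with a difference of -1.13 between genotypes. Mertk gave -0.46, and Adgre1, Cd68, Csf1r, Itgam and Lyz2 lay between -0.11 and 0.04. The neutrophil list (10 of 12 genes measured, with Ly6g and Retnlg not among them) averaged -0.14, -0.53 and 0.04 from the gene means on knockout arrays 1, 2 and 3 and 0.09 to 0.33 on the wild-type arrays. Dendritic cell markers (9 of 10 measured) averaged 0.06, 0.37 and -0.03 on knockout arrays 1, 2 and 3, and -0.20 to -0.01 on the wild-type arrays. By these averages, knockout replicate 2 was the lowest array for the macrophage and neutrophil lists and the highest for the dendritic cell list. Single genes differed. Adgre1, Cd68, Csf1r and Fcgr1 (10.48) were lowest on that array, whereas Mertk (8.58), Itgam and Lyz2 were not. Of the 9 dendritic cell markers, 6 had the higher mean in knockout and 3 the lower. Fibroblast markers (9 of 9 measured, 6 of them under the median of all values) averaged -0.31 to -0.19 in knockout and 0.20 to 0.30 in wild type, with no such place for knockout array 2. Of these 9 genes, 3 passed limma's threshold as lower in knockout and 0 as higher, beside 2.05% and 2.85% of all genes. The lower mean was in knockout for 8 of the 9. Among the neutrophil markers S100a8, S100a9 and Mmp8 were brightest, and Mpo and Cxcr2 lay under the median of all values. Mmp8 (0.16, SE 0.06) and Mmp9 (0.29, SE 0.14) had the higher mean in knockout, against the other 8, and Mmp8 was highest on knockout array 2 (13.13). The part of these markers in the values of Retnla, Chil3 and Folr2 was not tested.

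**Figure D3:**
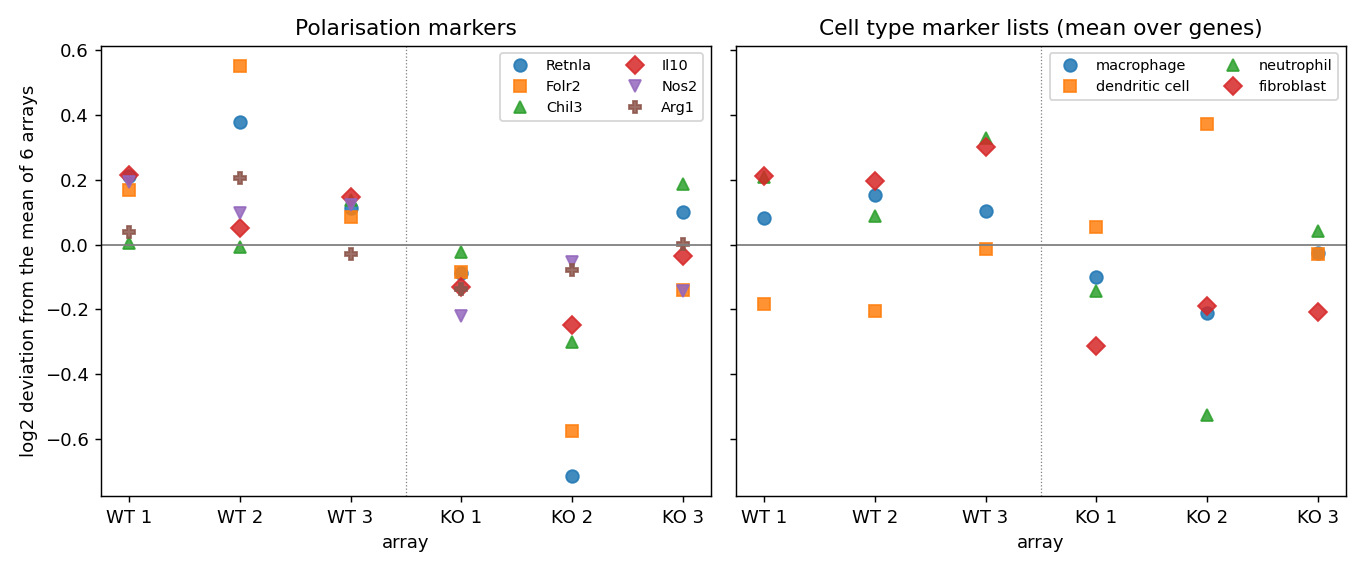
Deviation of each array from the mean of the 6 arrays (log2, vertical axis) for Retnla, Folr2, Chil3, Il10, Nos2 and Arg1 (left) and for the mean over genes of 4 cell type marker lists (right); WT is wild type and KO knockout, followed by the replicate number. Knockout replicate 2 is the lowest array for Retnla, Folr2, Chil3, Il10 and the macrophage and neutrophil lists and the highest for the dendritic cell list.

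Folr2, the folate receptor beta, had the largest difference of the 11 probe sets. It read 6.05, 5.56 and 6.00 on the knockout arrays and 6.30, 6.69 and 6.22 on the wild-type arrays, without overlap. The difference was -0.53 (SE 0.15, 95% interval -0.88 to -0.19; limma adjusted p = 0.0907), or 1.45-fold, and did not pass. It was -0.38 without knockout array 2 and -0.39 without wild-type array 2, which was the highest array. Its level was at the 57.9th percentile. Among 10 measured genes of folate uptake and use, Shmt2, the mitochondrial serine hydroxymethyltransferase, rose by 0.81 (SE 0.08; limma adjusted p = 0.00705), 0 fell and 9 did not pass. Over all genes 2.85% rose and 2.05% fell, the shares to set beside this list and each pathway list below. These shares are not matched for expression level. Under the median of all values lay 6908 of the 18193 genes, and 0 to 3 genes of each pathway list. Of the 4 probe sets of Shmt2, 2 were called and the smallest rise was 0.26. The probe set that stands for Shmt2 kept its call in each of the 6 fits that left out 1 array. The other folate receptor measured, Folr1, was dim and is among those 9.

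Il10 was the dimmest of the 8 genes. It read 3.78, 3.66 and 3.88 on the knockout arrays and 4.13, 3.96 and 4.06 on the wild-type arrays, again without overlap. The difference was -0.28 (SE 0.08, 95% interval -0.46 to -0.10; limma adjusted p = 0.092). Its mean lay at the 16.4th percentile and 5 of its 6 values were under 4.07, the 20th percentile of all values. With values below that percentile set to it, the difference was -0.02, so it lies almost wholly in a range where signal of the transcript is not established. Of 12 measured genes of the IL-10 signal 0 passed limma's threshold; by an unadjusted p under 0.05 there were 4 lower and 0 higher, beside 8.15% and 15.2% of all genes, and the median difference was -0.09. The 2 with the smallest p were Maf, a transcription factor that drives Il10 (-0.45, SE 0.11; limma adjusted p = 0.0536 for its brightest probe set), and the cytokine gene Il6 (-0.78, SE 0.23; limma adjusted p = 0.103). All 6 probe sets of Maf had the lower mean in knockout, from -0.63 to -0.04, and 1 dimmer set that does not stand for the gene here was called (-0.52, SE 0.11; limma adjusted p = 0.0444). Without knockout array 3 the IL-10 list had 1 call, lower.

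Il4ra showed no difference past the test in any of its 3 probe sets. The brightest read 8.12, 8.22 and 8.25 in knockout and 8.19, 8.11 and 8.17 in wild type, a difference of 0.04 (SE 0.07, 95% interval -0.11 to 0.19; limma adjusted p = 0.815). The second, probe set 2 in the plots, gave 0.05 (SE 0.09; limma adjusted p = 0.826). The dimmest, probe set 3, read 6.45, 6.57 and 6.44 against 6.36, 6.36 and 6.32, which do not overlap, with a difference of 0.14 (SE 0.07; limma adjusted p = 0.275). The 3 probe sets of this gene thus did not give the same separation of genotypes. Of 11 measured genes of the IL-4 and IL-13 signal, Socs1, an inhibitor of JAK kinases, fell by 0.69 (SE 0.10; limma adjusted p = 0.0177) and the adaptor Irs2 fell by 0.41 (SE 0.09; limma adjusted p = 0.0367), 0 rose and 9 did not pass. Stat6 was among those 9, with a difference of 0.05 (SE 0.07). The number of calls was 0 without knockout array 1 or wild-type array 2, and 1 without each other array.

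Among other genes of alternative activation 1 passed the test. Of 20 measured, Pdcd1lg2, which codes for the checkpoint ligand PD-L2, rose by 0.60 (SE 0.14; limma adjusted p = 0.0493), 0 fell and 19 did not pass. The median difference was 0.17, beside 0.01 over all genes, and 14 of 20 had the higher mean in knockout, as did 53.1% of all genes. The chemokine genes Ccl17 (0.87, SE 0.25) and Ccl22 (0.67, SE 0.16), the lectin gene Clec10a (0.57, SE 0.15) and the mannose receptor gene Mrc1 (0.16, SE 0.07) did not pass (limma adjusted p of 0.0544 to 0.221), and the 3 knockout values of each lay above the 3 wild-type values. The receptor antagonist gene Il1rn (-0.25, SE 0.09) and the scavenger receptor gene Msr1 (-0.09, SE 0.06) did not pass either, and their knockout values all lay below the wild-type ones. Pdcd1lg2, Ccl17, Ccl22 and Clec10a were highest on knockout array 2 (8.70, 11.99, 12.40 and 8.55). On that array Retnla and the average of the neutrophil list were lowest, and the average of the dendritic cell list was highest. The part of the dendritic cell markers in these values was not tested. The call of Pdcd1lg2 was lost after quantile normalization and without each array but knockout array 3; its difference was 0.44 without knockout array 2, and without knockout array 3 there were 4 genes of the list that rose.

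Tgfb1 was measured by 2 probe sets that differed from each other. The brighter read 8.35, 8.19 and 8.41 in knockout and 8.33, 8.40 and 8.31 in wild type, with overlap and a difference of -0.03 (SE 0.08, 95% interval -0.20 to 0.14; limma adjusted p = 0.879). The dimmer read 6.24, 5.98 and 6.04 against 6.22, 6.35 and 6.35, with overlap and a difference of -0.22 (SE 0.09; limma adjusted p = 0.194). Which transcripts the second probe set detects was not examined. Among 19 measured genes of the TGF-beta signal, the receptor kinase gene Tgfbr1 rose by 0.43 (SE 0.09; limma adjusted p = 0.0344), 0 fell and 18 did not pass; of its 3 probe sets 1 was called and the lowest gave -0.03, and with the mean of all probe sets of a gene 0 genes of the list passed. Tgfbr1 kept its call when wild-type array 3 was left out and lost it without each of the other arrays. Among the 8 genes of osteopontin receptors, Itgb3, an integrin subunit, fell by 0.45 (SE 0.10; limma adjusted p = 0.0409), 0 rose and 7 did not pass. Of the 2 probe sets of Itgb3, 1 was called and the other gave -0.18. When 1 array was left out, the call of Itgb3 was kept only without knockout array 3. Itgb5 of the same list (0.26, SE 0.07; limma adjusted p = 0.0643) did not pass, with all knockout values above the wild-type ones. With above-median probe sets only, trend and robust settings, an adjusted p under 0.1 or the mean of all probe sets, 1 gene of the list rose and 1 fell.

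Some enzymes and carriers around Arg1 and Nos2 passed the test where Arg1 and Nos2 did not, although the contrast between them was not itself tested. In the list for arginine transport, synthesis and breakdown, 3 of 13 measured genes rose, 0 fell and 10 did not pass, beside 2.85% of all genes that rose and 2.05% that fell; the median difference was 0.11. Aldh18a1, which makes the proline and ornithine precursor from glutamate, read 7.54, 7.45 and 7.42 in knockout and 6.81, 6.87 and 6.97 in wild type and rose by 0.59 (SE 0.07; limma adjusted p = 0.0143). Of its 5 probe sets, 2 were called and the smallest rise was 0.27. Gatm, which uses arginine for creatine synthesis, rose by 0.57 (SE 0.11; limma adjusted p = 0.0336), but did not pass after quantile normalization. Slc25a15, the mitochondrial ornithine carrier, rose by 0.42 (SE 0.08; limma adjusted p = 0.0319), although its other probe set gave 0.11. The cationic amino acid transporter gene Slc7a2 (-0.17, SE 0.10), the mitochondrial arginase gene Arg2 (-0.03, SE 0.15) and the citrulline-recycling enzyme gene Ass1 (-0.13, SE 0.09) did not pass. Nor did Slc3a2 (-0.30, SE 0.07; limma adjusted p = 0.0574), with all knockout values below the wild-type ones. Slc7a6 (0.47, SE 0.14) and Asl (0.23, SE 0.07) did not pass either, with all knockout values above. With above-median probe sets only, trend and robust settings, an adjusted p under 0.1 or the mean of all probe sets, 1 gene of the list fell and 3 or 4 rose. The number that rose was 0 without knockout array 1 or wild-type array 2, 1 without knockout array 2, wild-type array 1 or wild-type array 3 and 2 without knockout array 3.

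In the polyamine list, downstream of ornithine, 1 of 12 measured genes fell, 0 rose and 11 did not pass, with a median difference of 0.04. Smox, the oxidase that returns spermine to spermidine, read 10.23, 10.14 and 10.44 in knockout and 10.86, 10.86 and 10.66 in wild type. It fell by 0.52 (SE 0.10; limma adjusted p = 0.0267), and both of its probe sets were called. Odc1, the ornithine decarboxylase that opens the pathway, did not pass (-0.13, SE 0.10). The genes Srm (0.55, SE 0.16) and Mtap (0.37, SE 0.09) did not pass either (limma adjusted p = 0.0895 and 0.0549). All knockout values of both lay above the wild-type ones. Of the 12 genes, 7 had the higher mean in knockout and 5 the lower. With median centring or array weights, 1 gene of the list rose. The call of Smox was kept without knockout array 3 or wild-type array 3 and lost without each of the other 4 arrays.

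The cofactor genes of nitric oxide synthase moved in both directions. Of 11 measured genes for the cofactor, the other synthases and methylarginine breakdown, 2 rose, 1 fell and 8 did not pass, with a median difference of 0.15. Gch1, which catalyses the first and limiting step of tetrahydrobiopterin synthesis, read 11.51, 11.29 and 11.65 in knockout and 12.06, 12.12 and 12.01 in wild type. It fell by 0.58 (SE 0.09; limma adjusted p = 0.0217), and both of its probe sets were called. The enzymes of the later steps rose: Pts by 0.35 (SE 0.08; limma adjusted p = 0.0458) and Spr by 0.42 (SE 0.09; limma adjusted p = 0.0425). Of the 2 probe sets of Pts, 1 was called and the other gave 0.12. Gch1 lost its call without knockout array 1, wild-type array 1 or wild-type array 2, Pts without each array in turn, and Spr without each but wild-type array 3. Pts and Spr also did not pass after quantile normalization or with array weights.

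Of 19 measured genes that act upstream of Nos2, 3 fell, 0 rose and 16 did not pass, with a median difference of -0.09. Over all genes 2.05% fell and 2.85% rose. Irf1, a transcription factor needed for induction of Nos2, read 10.05, 9.93 and 10.21 in knockout and 10.66, 11.02 and 10.65 in wild type and fell by 0.71 (SE 0.11; limma adjusted p = 0.0212). The interferon beta gene Ifnb1 fell by 1.43 (SE 0.17; limma adjusted p = 0.0136) and the receptor chain gene Ifnar1 by 0.41 (SE 0.08; limma adjusted p = 0.0344). The NF-kB subunit gene Rela (-0.08, SE 0.07) and the arginase and Nos2 regulator gene Cebpb (-0.04, SE 0.06) did not pass. Ifnar2 (-0.28, SE 0.07) and Tnf (-0.46, SE 0.14) did not pass either, with all knockout values below the wild-type ones. Ifngr1 (0.28, SE 0.07), Irf8 (0.28, SE 0.09) and Tlr4 (0.20, SE 0.07) also did not pass, with all knockout values above. Of the 19 genes, 5 had the higher mean in knockout and 14 the lower. After quantile normalization or with array weights, 1 gene of the list rose. The number that fell was 0 without knockout array 1, 1 without knockout array 2 or wild-type array 2, 2 without wild-type array 1 or wild-type array 3 and 3 without knockout array 3. Over all 10 lists, which hold 132 different measured genes, 8 rose and 8 fell, beside 2.85% and 2.05% of all genes. The lists were chosen with earlier results known, so these counts are descriptions and not a test. Of these 16 genes, 1 kept its call without knockout array 1 and 2 without wild-type array 2. None of the 16 changed direction in those fits, nor could any, because the genotypes did not overlap in any of them.

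**Figure D4:**
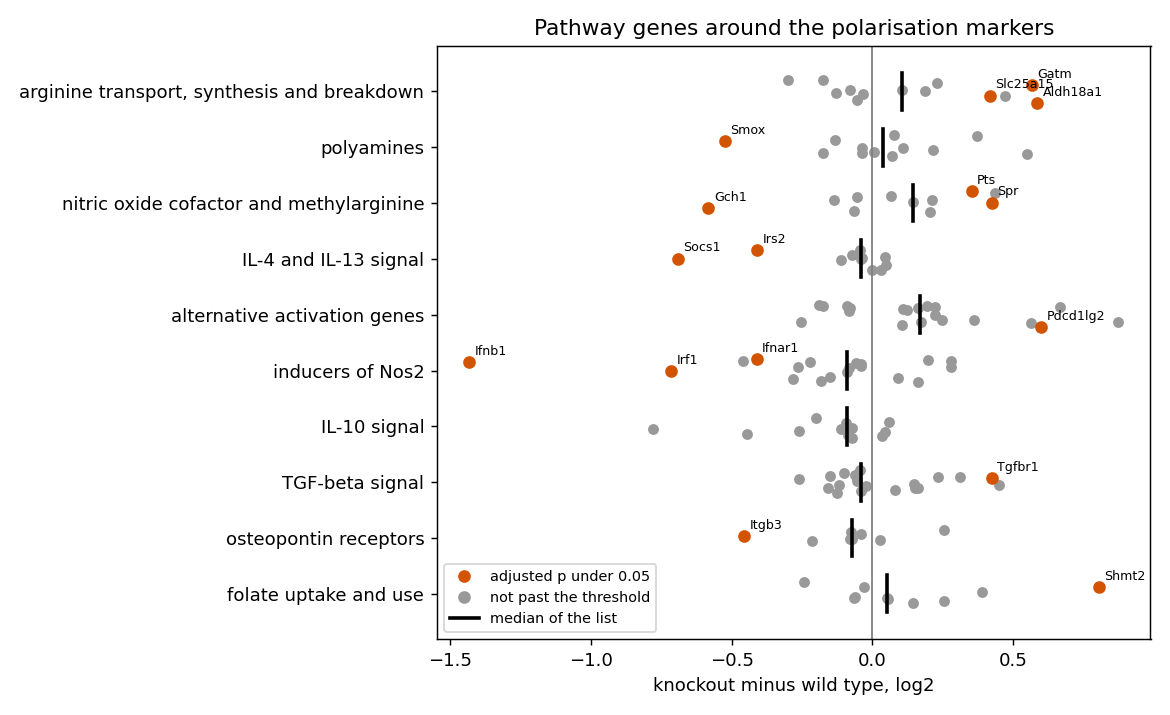
Difference between knockout and wild type (log2, horizontal axis) for each measured gene of the 10 pathway lists; orange points passed limma's adjusted p of 0.05 and are named, grey points did not, and black bars are list medians. The medians lie between -0.09 and 0.17, and the largest called difference is that of Ifnb1 (-1.43).

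Genes whose values ran most like those of Nos2 and Arg1 were sought among 1699 genes with a mean above the median of all values and an SD over the 6 arrays of at least 0.2. For Nos2 they were Cds2, Ahnak2 and Blnk, with Pearson's r over the 6 arrays of 0.982, 0.981 and 0.976. For Arg1 they were Aldh1l1, Tiam1 and Gbp8, with r of 0.988, 0.986 and 0.982. The 6 arrays share the genotype split, and 2.18% of these genes had an r above 0.9 with Nos2 and 4.36% with Arg1.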

How the data were processed

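Expression was compared between 3 knockout and 3 wild-type arrays. The authors deposited 1 normalized log2 value per probe set and array; that scale was read from the values' range. Tools listed in the submitters' processing notes are GCRMA 2.30.0, RMA, affy 1.36.1 and limma 3.14.4, with no order, so which summary method gave the log2 values stays unknown; it affects dim probe sets most. Detection calls were not used here.

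The 64 control probe sets were left out. Symbols came from the platform annotation, updated through RefSeq gene identifiers; 34945 probe sets had 1 gene, 932 several and 9160 none here. Genotypes were compared with limma 3.58.1 in R 4.3.3 (lmFit, eBayes, no covariate), with Benjamini-Hochberg adjustment over 45037 probe sets and a threshold of 0.05. SEs and intervals are limma's. The brightest probe set stood for a gene in lists. From a list, up to 5 called genes were named by p, or the 2 with the smallest p where none was called. A permutation of 3 against 3 arrays could not go below p = 0.1. On simulated data of 45037 probe sets, recovery was 40.3% for true log2 changes of 0.5, 92.5% for 1 and 100% for 2. These sizes were given to 67, 67 and 66 probe sets, and there were 4 false calls. Noise was normal and independent between probe sets, and fewer were changed than the 1691 called here. Recovery in these data may therefore differ. Members and lists were chosen with earlier results of these data known, and uncalled genes named beside Maf and Il6 after inspecting their values. Quantile normalization, median centring, a level filter, a floor, trend and robust settings, array weights, a replicate block and leaving out each array were tried. Promoters are RefSeq's, GRCm38.p6. Figures were drawn with matplotlib 3.10.9.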

Additional observations from a re-analysis of the deposited data

How the results depend on the processing

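Of 153 member differences compared with the main fit, 144 kept their direction and their side of the threshold. The setting of an adjusted p under 0.1 reused the main fit. The level filter, the trend and robust settings and the replicate block left each difference as it was. In these settings only the side of the threshold could change. The number of members past the threshold, 0, became 1 with probe sets above the median level only and 3 at an adjusted p under 0.1 (Nos2, Il10 and Folr2, all lower), and stayed 0 in all other settings, each left-out array included. The differences that changed sign, none of them called, were those of Il4ra after quantile normalization (-0.01), of Chil3 (0.04), Tgfb1 (0.03) and Il4ra (-0.03) without knockout array 2, and of Il4ra without wild-type array 1 (-0.003). The number of all probe sets called, 1691, was 2692 with above-median probe sets only, 3126 with trend and robust settings, 3775 at an adjusted p under 0.1, 71 with the floor at the 20th percentile, 92 with the replicate block and 40 to 1360 when 1 array was left out. The number of pathway list genes called, 16, was 27, 28, 31, 0 and 2 in the same settings and 1 to 15 when 1 array was left out; with the mean of all probe sets of a gene it was 22. Under the floor, 7407 probe sets had the same value on all arrays and so no spread. Same-numbered arrays did not deviate together (r of -0.06, -0.04 and -0.13 over probe sets, lower for each pair than with some array of another number), so the replicate block groups arrays by number alone; it changed no member's call. The split of calls was 686 higher and 817 lower after quantile normalization and 1155 and 762 after median centring, against 927 and 764. Array medians differed by up to 0.04. For the remaining changes of a count, the cause was not tested.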
